A study of Mus musculus with 6 samples.

Results

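The pancreas samples were examined for 10 genes that mark fat cells: Adipoq, Retn, Cfd, Car3, Fabp4, Plin1, Cidec, Pparg, Lpl and Cd36. The genes were chosen by name, with earlier results of these data known. All 10 were found among the 12016 genes of the authors' deposited table and were tested there. Poly(A) RNA from pancreas was sequenced for 3 wild-type C57Bl6/N mice and 3 OCaR1-/- mice, all of them untreated males aged 3 weeks. OCaR1 is the product of Tmem63a, which is background knowledge and not in the labels. The strain is spelled here as in the labels' protocol, while their strain field reads C56Bl6/N for both genotypes, and they do not say how the allele was made. A dissected pancreas includes any fat, vessels and lymphatic tissue that stayed attached.

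Fat cells store triglyceride in a single large lipid droplet and release hormones called adipokines. Pparg encodes the nuclear receptor that drives their formation and switches on many other genes of the set. Lipoprotein lipase frees fatty acids from blood lipoproteins, CD36 takes them up and Fabp4 carries them inside the cell, while perilipin 1 and Cidec coat the droplet and control its growth and breakdown. In the pancreas, fat cells lie between the lobules and around the organ. Several of these genes are also used by other cells: macrophages express Fabp4, Lpl, Cd36 and Pparg, and capillary endothelium expresses Cd36 and Fabp4.

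The authors give 1 FPKM value per genotype (fragments per kilobase of transcript, corrected for sequencing depth), which combines 3 mice. Values of single mice were not analysed here, so no SD or n stands beside a level, and whether a difference exceeded the spread between mice rests on the authors' Cuffdiff test. A gene counts as called, and as having risen or fallen, when that table gives it a q-value (a p-value adjusted over the tested genes) under 0.05. Pairs of levels are written as knockout against wild type. Depth is unknown, since no counts were used here. The targeted gene Tmem63a stood at 4.91 against 18.3 FPKM, at q = 0.00152 (authors' deposited table). Of the summed FPKM, the measured genes of an acinar digestive enzyme list made up 55.0% in the knockout and 60.0% in wild type. Acinar cells are the main cells of the pancreas. Of 27 tested genes of that list, 4 were called higher and 3 lower, with a median log2 fold change, knockout over wild type, of 0.04. Single abundant genes weigh on these shares, since Cela1 alone stood at 16591 against 37728 FPKM.

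All 10 fat cell markers had a higher FPKM in the knockout, and 8 of them rose by the authors' test, with none called lower. Every listed gene has a higher value above 1 FPKM, and Retn had 0.963 FPKM in wild type. Retn could therefore enter these counts only with a higher knockout value. Across the whole table, the share called higher was 4.20% of 11478 tested genes and the share called lower 3.35%, or 7.54% in either direction. Because the markers were chosen with earlier results known, their counts beside these shares are a description and not a test. The median log2 fold change of the 10 markers, knockout over wild type, was 0.99 (1.98-fold), beside -0.03 over all tested genes. With any 1 marker left out, Retn included, the marker median was at least 0.91. Summed over the markers, the level was 223 against 108 FPKM, a ratio of 2.06. This sum was 0.0329% of all FPKM in the knockout and 0.0165% in wild type, so the markers were a small part of the RNA in both genotypes. In bulk tissue, more fat cells and more of these transcripts per fat cell cannot be told apart.

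**Figure D1:**
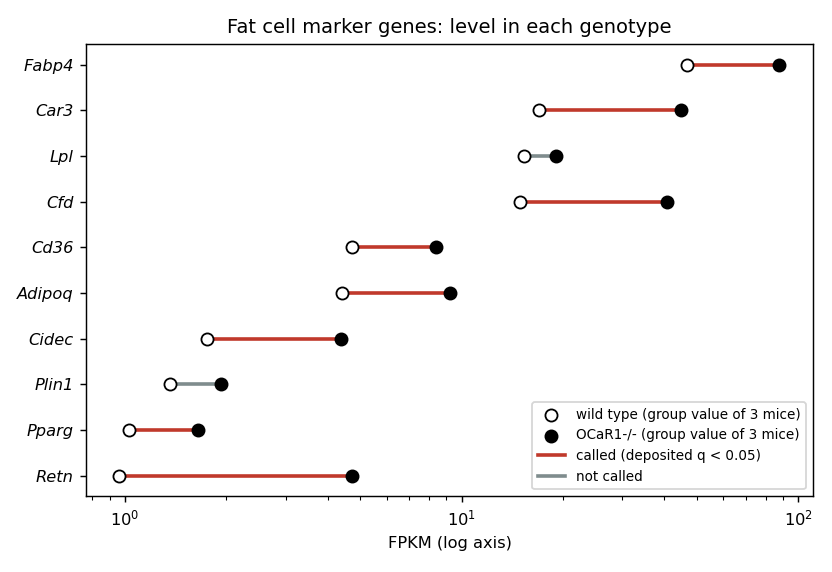
FPKM of the 10 fat cell markers on a log axis, with an open point for wild type and a filled point for OCaR1-/-, each the authors' group value of 3 mice; red lines join genes called at q under 0.05 and grey lines those not called. Every filled point lies to the right of its open point, from Retn (0.963 to 4.74 FPKM) to Fabp4 (46.7 to 88.0 FPKM).

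The 250 bases upstream of the annotated start are shown for the 3 adipokine genes, which rose together, and for an internal start of Pparg. They come from the RefSeq promoter table of build GRCm38.p6, in which 7 of the 10 markers (Adipoq, Retn, Cfd, Plin1, Cidec, Pparg and Cd36) matched 10 windows, and Car3, Fabp4 and Lpl did not match. Capitals mark matches, on either strand, to AGGTCA (the half-site of nuclear receptors such as PPAR gamma), TTGCNNAA (a core bound by C/EBP factors), CCAAT and TATAAA. Each sequence is written 5′ to 3′ on the strand of its gene.
Adipoq, chr16:23146286-23146535, plus strand: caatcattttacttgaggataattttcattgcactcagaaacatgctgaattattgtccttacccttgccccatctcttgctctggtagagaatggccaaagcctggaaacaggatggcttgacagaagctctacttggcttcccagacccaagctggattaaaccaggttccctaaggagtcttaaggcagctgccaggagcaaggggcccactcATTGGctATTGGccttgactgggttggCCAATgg
Retn, chr8:3655520-3655769, plus strand: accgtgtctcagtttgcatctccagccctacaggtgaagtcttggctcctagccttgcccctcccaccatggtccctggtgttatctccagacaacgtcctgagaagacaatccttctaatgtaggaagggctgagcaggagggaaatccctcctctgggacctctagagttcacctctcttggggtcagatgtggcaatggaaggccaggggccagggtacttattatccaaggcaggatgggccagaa
Cfd, chr10:79890603-79890852, plus strand: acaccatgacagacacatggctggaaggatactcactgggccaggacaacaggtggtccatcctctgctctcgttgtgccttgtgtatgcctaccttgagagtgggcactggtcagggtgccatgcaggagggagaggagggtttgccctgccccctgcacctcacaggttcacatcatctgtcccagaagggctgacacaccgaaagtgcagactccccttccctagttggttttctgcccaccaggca
Pparg, internal start, chr6:115421816-115422065, plus strand: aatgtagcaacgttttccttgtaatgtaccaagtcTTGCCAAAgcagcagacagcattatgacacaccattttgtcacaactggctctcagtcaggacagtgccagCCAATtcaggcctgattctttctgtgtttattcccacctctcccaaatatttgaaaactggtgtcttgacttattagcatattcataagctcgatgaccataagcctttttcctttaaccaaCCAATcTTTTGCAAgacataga

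The adipokine windows did not share a motif: that of Adipoq held 3 CCAAT matches within 34 bases of the start, and those of Retn and Cfd held none of the motifs searched. Pparg has 3 windows, and the internal one held 2 TTGCNNAA and 2 CCAAT matches, of which one of each lay within 22 bases of the start. The full repeat AGGTCANAGGTCA, to which PPAR gamma binds with its partner RXR and which contains the half-site AGGTCA, was in none of the 10 marker windows and in 0.0335% of 32851 windows in the table. AGGTCA was in 3 marker windows (of Cd36 and Pparg) and 14.0% of all, TTGCNNAA in 3 (of Cidec, Plin1 and Pparg) and 9.56% of all, CCAAT in 4 (of Adipoq, Cd36 and Pparg) and 33.8% of all, and TATAAA in 1 (of Pparg) and 12.4% of all. These matches describe letters in short windows and nothing about binding.

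The 3 adipokine genes had the largest ratio of the 4 marker groups, from a summed 20.3 FPKM in wild type to 54.7 FPKM in the knockout, a ratio of 2.69. Retn (ENSMUSG00000012705, chromosome 8, 3655770 to 3660110, plus strand) encodes resistin, a hormone that in mice is made mainly by fat cells. It stood at 4.74 against 0.963 FPKM, 4.92-fold higher, at q = 0.00152 (authors' deposited table). Retn was the least abundant marker in wild type and the seventh in the knockout, and its log2 fold change of 2.30 ranked 39 among 11441 tested genes with a fold change. The table lists no gene whose higher value is 1 FPKM or less, and the wild-type value of Retn lay under that level. Retn is therefore listed only through its knockout value.

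Cfd (ENSMUSG00000061780, chromosome 10, 79890853 to 79892656, plus strand) encodes adipsin, the serine protease that starts the alternative complement pathway. Its level was 40.7 against 14.9 FPKM, a log2 fold change of 1.45 at q = 0.00152 (authors' deposited table). Adipoq (ENSMUSG00000022878, chromosome 16, 23146536 to 23158028, plus strand) encodes adiponectin, a hormone made almost only by fat cells. It stood at 9.21 against 4.42 FPKM, 2.09-fold higher, also with q = 0.00152 in that table. That q belongs to the smallest p of the table, 5e-05, which 394 genes share, 7 of them fat cell markers, so the markers cannot be ranked by p.

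The lipid droplet genes differed in call. Cidec (ENSMUSG00000030278, chromosome 6, 113424634 to 113435760, minus strand) encodes a protein that fuses droplets. It rose from 1.76 FPKM in wild type to 4.38 FPKM in the knockout, 2.49-fold (q = 0.00152, authors' deposited table). Plin1 (ENSMUSG00000030546, chromosome 7, 79721164 to 79732776, minus strand), the main droplet coat gene of fat cells, had 1.92 against 1.36 FPKM. Its log2 fold change of 0.50 was not called (q = 0.0738, authors' deposited table). Whether the changes of Cidec and Plin1 differ from each other was not tested.

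The genes of fatty acid release, uptake and binding held the highest summed FPKM of those groups and had the smallest ratio, with summed levels of 115.5 against 66.7 FPKM, a ratio of 1.73. Fabp4 (ENSMUSG00000062515, chromosome 3, 10204088 to 10208576, minus strand), the fatty acid binding protein of fat cells, was the most abundant marker in both genotypes. It rose from 46.7 to 88.0 FPKM, 1.88-fold (q = 0.00152, authors' deposited table), and gave 43.2% of the marker sum in wild type and 39.5% in the knockout. Cd36 (ENSMUSG00000002944, chromosome 5, 17781690 to 17888959, minus strand), the fatty acid translocase, rose 1.78-fold, from 4.74 to 8.41 FPKM (q = 0.00152, authors' deposited table). Lpl (ENSMUSG00000015568, chromosome 8, 68880491 to 68907448, plus strand), lipoprotein lipase, had the smallest fold change of the set, with 19.1 against 15.3 FPKM. Its log2 fold change of 0.32 was not called (q = 0.0556, authors' deposited table).

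Car3 (ENSMUSG00000027559, chromosome 3, 14863512 to 14872523, plus strand) encodes carbonic anhydrase 3, an abundant cytosolic protein of fat cells that skeletal muscle and liver also contain. It was the second most abundant marker in both genotypes and rose from 17.0 to 44.8 FPKM, a log2 fold change of 1.40 (q = 0.00152, authors' deposited table). Pparg (ENSMUSG00000000440, chromosome 6, 115361221 to 115490401, plus strand) rose from 1.03 to 1.65 FPKM, 1.60-fold, at q = 0.00906 in that table. The isoform of Pparg that is typical of fat cells is known to start at an internal promoter, and a value per gene does not separate it from the others. An antisense gene, Gm44079, overlaps Pparg in GENCODE M21, and use of strand in the authors' counting is not given in the sources used here. No other marker overlaps an annotated gene there, and none shares its interval with another gene of the table.

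Fabp4 and Car3 led the order of the levels in both genotypes, and the other 8 markers changed places. In wild type it ran from Fabp4 through Car3, Lpl, Cfd, Cd36, Adipoq, Cidec, Plin1 and Pparg to Retn. In the knockout, Cfd stood above Lpl, Adipoq above Cd36 and Retn above Cidec, Plin1 and Pparg. Lpl and Cfd (15.3 and 14.9 FPKM) and Cd36 and Adipoq (4.74 and 4.42 FPKM) were close neighbours in wild type, and without values per mouse their order there has no error. By size of change, 5 markers (Retn, Cfd, Car3, Cidec and Adipoq) were called and higher by at least 1 on the log2 scale, as were 0.932% of all tested genes. All 8 called markers changed by more than the median of the genes called higher, which was 0.68 on the log2 scale, although Pparg (0.6806, beside 0.6752) only just did so.

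**Figure D2:**
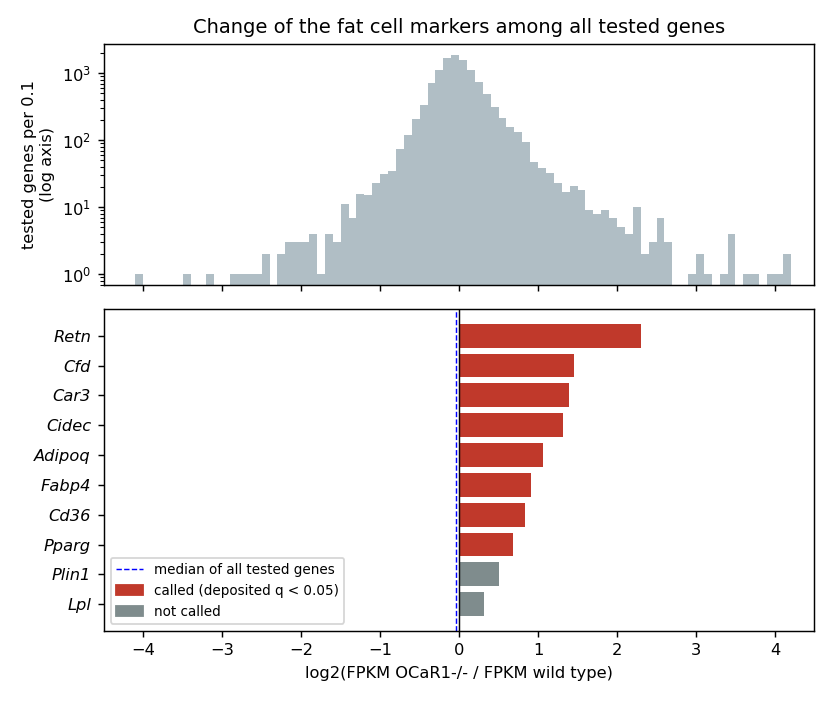
Upper panel, the number of tested genes per 0.1 of log2 fold change, knockout over wild type, on a log axis (8 genes beyond 4.5 in size are not drawn). Lower panel, the same quantity for each fat cell marker as a bar from 0, red where called; all 10 bars point to the knockout side, from 0.32 for Lpl to 2.30 for Retn, while the dashed median of all tested genes is at -0.03.

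Other genes of fat cell identity were higher in part. Of 17 tested genes of a list of 27, 5 passed the authors' test upward and none downward (deposited table), with a median log2 fold change of 0.36. The other 10 names of the list, among them Lep and Adrb3, have no row in that table. It lists no gene whose higher value is 1 FPKM or less. Thrsp, a regulator of fatty acid synthesis, rose 5.59-fold (1.75 to 9.77 FPKM), Slc2a4, the insulin-responsive glucose transporter, from 0.634 to 1.27 FPKM, and Aoc3, a surface amine oxidase of fat cells, from 1.37 to 2.04 FPKM. Cav1, the caveolin gene that endothelium also expresses, rose 1.80-fold, in a table interval that another gene shares, and Ptrf, which encodes cavin 1, from 11.4 to 14.6 FPKM. Of these, Aoc3 and Thrsp had q = 0.00152 in the authors' deposited table, and Slc2a4, Cav1 and Ptrf had q = 0.0269, q = 0.0368 and q = 0.0411. The fat cell genes Adig (1.53 against 0.505 FPKM) and Mrap (1.37 against 0.479 FPKM) had log2 fold changes of 1.60 and 1.52 without a call (q = 0.182 and q = 0.126 in the same table). These 2 genes were chosen after their values were seen. Adig, Mrap and Slc2a4 were above 1 FPKM only in the knockout, so they are listed only through that value. Among genes of the list with at least 5 FPKM in either genotype, the median log2 fold change was 0.16. Thrsp met that level only through the knockout. Of the 17 tested genes, 12 had a higher and 5 a lower FPKM in the knockout; the 5 were Pde3b, G0s2, Lgals12, Tmem120a and Acsl1, with log2 fold changes between -0.26 and -0.0012, none of them called.

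Several genes of fat cell precursors rose as well. Of 6 tested genes of the list, 4 rose and none fell by the authors' deposited table, and the median log2 fold change was 0.48. Dlk1, the inhibitor of fat cell formation known as Pref-1, rose from 1.57 to 3.31 FPKM and Ly6a, the stem cell antigen Sca-1, from 10.3 to 15.5 FPKM (both q = 0.00152 in that table). Cd34, a surface antigen of progenitors that endothelium shares, rose 1.49-fold in a shared interval (q = 0.0107 in that table), and Pdgfra, a receptor of fibroblasts and precursors, 1.31-fold (q = 0.0170). Pdgfra and Pi16 of this list are counted again among the stromal markers below. Dlk1 is also known from islet cells.

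The transcriptional regulators around Pparg held 1 call in 22. Ncoa1, a nuclear receptor coactivator, fell from 2.92 to 2.25 FPKM (q = 0.0131, authors' deposited table), none was called higher, and the list median was 0.03. Srebf1, the activator of lipid synthesis genes, had 22.7 against 13.9 FPKM (q = 0.176 in that table, in a shared interval). Among the C/EBP genes, Cebpb had 5.15 against 7.11 FPKM (q = 0.319, in a shared interval) and Cebpd 4.01 against 3.26 FPKM (q = 0.332), neither called in that table.

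The pathways that fill and empty the droplet had calls in both directions. Of 9 tested triglyceride synthesis genes, Dgat2, an enzyme of the last step, rose from 1.50 to 2.59 FPKM and Gpam, the mitochondrial enzyme of the first step, fell from 7.25 to 4.83 FPKM (both q = 0.00152 in the authors' deposited table; list median 0.03). Lpin1 (2.48 against 1.96 FPKM, q = 0.0713) and Agpat3 (17.8 against 22.6 FPKM, q = 0.132) were not called in that table. Of 9 tested breakdown genes, Lipa, the lysosomal lipase, was called higher (1.36-fold, q = 0.0251) and Mgll, the monoglyceride lipase, lower (1.38-fold, q = 0.00723, in a shared interval) in that table, with a list median of 0.18. Lipe, the hormone-sensitive lipase of fat cells, had 2.88 against 2.18 FPKM (q = 0.0603), and Faah, which breaks down fatty acid amides, 2.25 against 4.46 FPKM (q = 0.102), neither called in that table.

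Among 9 tested partners of lipoprotein lipase and other lipoprotein uptake genes, 3 rose and none fell by the authors' deposited table, although the list median was -0.17. Gpihbp1, the endothelial anchor of the lipase, rose from 6.97 to 10.1 FPKM (q = 0.0462 in that table). The apolipoprotein genes Apoe (98.8 to 153 FPKM, q = 0.00152) and Apoc1 (2.30 to 4.23 FPKM, q = 0.0317) also rose in that table. The lipoprotein receptor gene Vldlr had 6.92 against 11.6 FPKM and was not called (q = 0.0718 in that table). Apoe is also a gene of macrophages. Of 9 other fatty acid transport and binding genes, 1 was called, Slc27a1, a fatty acid transporter, which fell from 11.4 to 8.95 FPKM (q = 0.0155 in the authors' deposited table; list median 0.05). In that list Slc27a4 (3.49 against 4.14 FPKM, q = 0.229), Slc27a3 (1.52 against 1.05 FPKM, q = 0.399) and Got2 (3.08 against 3.50 FPKM, q = 0.611) were not called in that table. Of the brown fat list 3 of 10 genes were tested and Cuffdiff called 0 (0 at an unadjusted p under 0.05); Ppargc1a, a coactivator of mitochondrial genes, had 1.07 against 0.653 FPKM (q = 0.351), Ppara 1.36 against 1.22 FPKM (q = 0.942) and Prdm16 1.94 against 2.05 FPKM (q = 0.962) in the authors' deposited table.

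**Figure D3:**
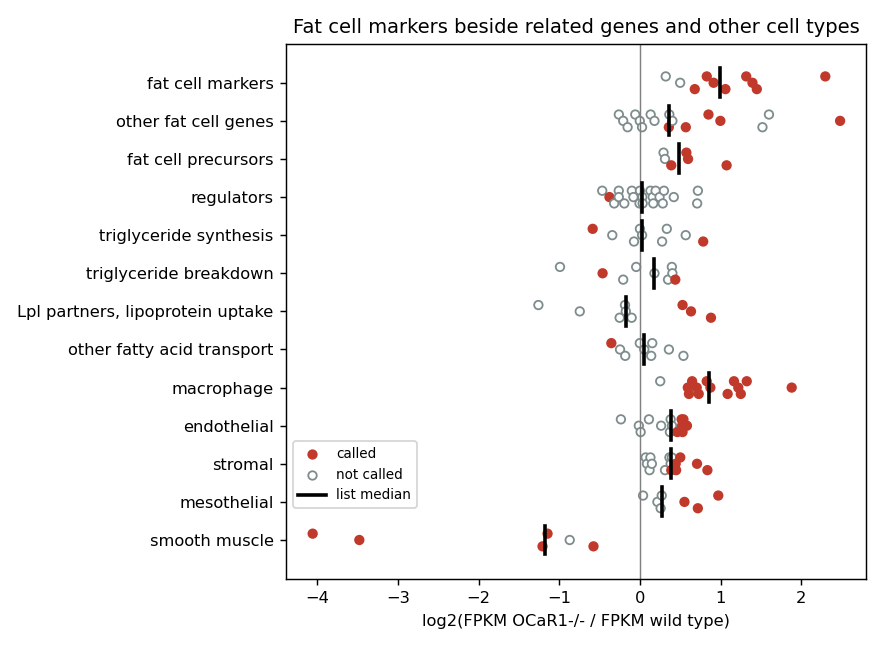
Log2 fold change, knockout over wild type, of each tested gene (points, red where called at q under 0.05 in the authors' table) by gene list, with the list median as a black bar. The fat cell markers (median 0.99) and macrophage genes (0.85) lie to the right of 0, regulators of fat cell formation (0.03) and triglyceride synthesis genes (0.03) spread around it, and smooth muscle genes (-1.18) lie to the left.

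Many, but not all, markers of some other cell types were higher in the knockout too. Of 14 tested macrophage and monocyte markers, 13 rose and none fell by the authors' deposited table, with a median log2 fold change of 0.85 and a summed level of 132 against 75.3 FPKM. Mpeg1, a pore-forming protein gene (1.62 against 0.646 FPKM), Lyz2, a lysozyme gene (44.4 against 18.7 FPKM), Emr1, which encodes the F4/80 antigen (1.78 against 0.762 FPKM), and Cd163, a scavenger receptor gene (2.15 against 1.01 FPKM), all had q = 0.00152 in that table, and none of the tested macrophage markers was at 0. The table lists no gene whose higher value is 1 FPKM or less. Mpeg1, Emr1, Trem2 (1.45 against 0.392 FPKM) and Itgam (1.65 against 0.735 FPKM) passed that level only in the knockout. These genes could therefore enter the macrophage count only with a higher knockout value. Among macrophage markers with at least 5 FPKM in either genotype, the median log2 fold change was 0.83. Of 14 endothelial markers, 6 rose and none fell by that table (median 0.39, summed level 108 against 83.2 FPKM). Those with the smallest p included Cdh5, the endothelial cadherin gene (8.36 against 5.58 FPKM), Emcn (7.63 against 5.31 FPKM), Tie1 (3.75 against 2.62 FPKM) and Pecam1 (16.1 against 11.0 FPKM, q = 0.0177 in that table). The other 8 endothelial markers were not called. Of them, 2 had a lower FPKM in the knockout: Kdr (3.86 against 4.54 FPKM) and Cldn5 (1.16 against 1.17 FPKM). The part of macrophages and endothelium in the values of Fabp4, Cd36, Lpl and Pparg was not tested. Without these 4 genes, a choice made after seeing the data, 5 of the 6 remaining markers were called higher, with a median of 1.36 and a ratio of summed levels of 2.62.

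Some stromal, mesothelial and lymphoid marker genes rose as well. Of 15 stromal markers, 6 rose and none fell by the authors' deposited table (median 0.38, summed level 577 against 450 FPKM), led by Mgp (45.1 against 25.3 FPKM), Postn (15.5 against 9.47 FPKM), Clec3b (16.2 against 11.4 FPKM) and Dcn (55.8 against 40.8 FPKM). Of 7 mesothelial markers, which cover the organ's surface, 3 rose and none fell by that table (median 0.27, summed level 28.2 against 22.6 FPKM): Rspo1 (2.16 against 1.10 FPKM), Upk1b (1.90 against 1.15 FPKM) and Lrrn4 (1.50 against 1.02 FPKM), while Upk3b (5.96 against 4.94 FPKM) was not called. Of 5 lymphocyte and lymph node markers, 3 rose and none fell by that table (median 0.88, summed level 16.1 against 8.77 FPKM): Igj (5.03 against 1.66 FPKM), Cxcl13 (7.34 against 3.72 FPKM) and Ptprc (1.70 against 0.922 FPKM), while Cd79b (1.25 against 0.859 FPKM) and Tcf7 (0.821 against 1.61 FPKM, the 1 marker with a lower level in the knockout) were not called. The part of these cell types in the change of the fat cell markers was not tested. Ptprc and Cd79b were above 1 FPKM only in the knockout and Tcf7 only in wild type, so each is listed only through that value.

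Smooth muscle went the other way: of 6 tested markers, 5 fell and none rose by the authors' deposited table (median -1.18, summed level 27.6 against 64.1 FPKM). The 5 called genes share the smallest p of the table, and by size of change they were Actg2 (0.878 against 14.6 FPKM), Cnn1 (0.307 against 3.43 FPKM), Des (1.70 against 3.92 FPKM), Myh11 (2.38 against 5.26 FPKM) and Acta2 (11.5 against 17.1 FPKM). Actg2 and Cnn1 were above 1 FPKM only in wild type. They are listed only through that value and could enter this count only with a lower knockout value. Skeletal muscle and liver contain Car3 too, and few of their markers were tested. Mylpf was the 1 tested skeletal muscle marker, at 2.69 against 1.93 FPKM without a call (q = 0.794, authors' deposited table). Of 3 tested liver markers, the albumin gene Alb (0.746 against 1.39 FPKM) and Apoa2 (0.300 against 1.13 FPKM) were called lower in that table, and Ttr, which islets also express, had 34.7 against 29.6 FPKM without a call, in a shared interval (list median -0.89). Alb and Apoa2 were also above 1 FPKM only in wild type, so the liver count and median could hold them only as lower. Of 27 tested acinar enzyme genes, 4 rose and 3 fell by the authors' deposited table, with a median of 0.04 and a summed level of 372780 against 393318 FPKM; the trypsinogen genes Gm5771 (122 against 43.5 FPKM), Prss3 (458 against 217 FPKM) and Prss1 (78.8 against 37.5 FPKM) and the inhibitor gene Spink3 (4105 against 3127 FPKM) were the 4 called higher, and Sycn, Pnlip and Cela1 the 3 called lower. Trypsinogen genes are close paralogs between which reads could be divided.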

How the data were processed

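RNA of 6 pancreas samples, 3 per genotype, was sequenced as single reads of 50 bases from poly(A)-selected libraries, per the labels' protocols. STAR 2.5.1b, Cufflinks 2.2.1, Cuffdiff and build GRCm38 were used, per the submitters' processing notes. The deposited table gives 1 FPKM per genotype, and per the file headers also a log2 ratio with wild type as numerator (used to check direction only), a p-value and a q-value of the authors' Cuffdiff test. No counts were used and depth is unknown, so no interval or detection floor is given, and p-values cover only the spread that Cuffdiff modelled.

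Log2 ratios of knockout over wild type were computed here from those FPKM, without a pseudocount. A value under 0.01 FPKM counted as listed at 0, which left 37 of 11478 tested genes without a fold change; the 538 genes that Cuffdiff did not test entered no count. A gene under 1 FPKM in 1 genotype is listed only through the other genotype, since every listed gene has a higher value above 1 FPKM. This limits the counts and medians of every list that holds such genes. The table's starts were shifted to count from 1. All 10 identifiers are in GENCODE M21, 8 with the same start. Intervals are shared by 3502 rows.

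The markers and gene lists were chosen with earlier results of these data known. The text names every marker and the 4 lowest-p genes of each other list (larger change first where p is tied). Some genes are not reported here and were left out of the lists. Lists are described by counts and medians with no test. Some genes are in 2 lists, so the lists are not independent. The called Pdgfra counts among precursor and stromal genes, and the called Gpihbp1 among lipase partners and endothelial markers. Lipe, Pnpla2 and G0s2 are in both the fat cell identity and the breakdown list. The adjustment of p-values was tested on simulated data. Python 3.11.15, pandas 2.3.3 and matplotlib 3.10.9 were used.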

Additional observations from a re-analysis of the deposited data

How the results depend on the processing

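No paired analysis was possible because the deposited table holds 1 value per genotype, and for the same reason no library could be left out. Of the 10 markers, 8 were called higher with q under 0.01 or after Benjamini-Hochberg adjustment over the tested genes. The count was 5 once a level of at least 5 FPKM in either genotype was required. Adipoq (9.21 against 4.42 FPKM) and Cd36 (8.41 against 4.74 FPKM) met that level only through the knockout. It was also 5 with a change of at least 1 on the log2 scale, and 5 without Fabp4, Pparg, Lpl and Cd36. The drops from 8 to 5 follow from the conditions themselves, which remove genes from the count. Under each of these thresholds that was run for that direction, 0 were called lower by Cuffdiff, and 0 had an unadjusted p under 0.05 there. Since all 10 markers had a higher FPKM in the knockout, no threshold could have given another count of lower calls. Over all tested genes, the 866 calls became 522 at q under 0.01, 497 with at least 5 FPKM and 145 with a change of at least 1. Scaling each genotype to its FPKM without the acinar enzyme list moved every log2 fold change by -0.22, which took the median of all tested genes from -0.03 to -0.25. All 40 recomputed fold changes of single markers stayed positive; the smallest under that scaling was 0.10, for Lpl. Of them 1 moved by over 1.5 times: Retn had 1.55 with a pseudocount of 1. The median of the markers lay between 0.77 and 1.36, and the ratio of their summed levels between 1.77 and 2.62, over the alternatives run. Both upper ends come from leaving out Fabp4, Pparg, Lpl and Cd36, which had to raise them. Over the other alternatives the upper ends were 1.06 and 2.19. Of 19 other list medians, 7 changed sign under that scaling, all of them 0.18 or less in size, and 3 with at least 5 FPKM, among them liver (0.23, from 1 gene), so no direction is drawn from them.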

Other observations

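A list of genes for receptors and binding proteins of fat cell hormones also held the insulin receptor gene Insr. It had 1 call in 6 tested genes in the authors' deposited table, with a median log2 fold change of 0.03. Cdh13, which encodes T-cadherin, a surface protein that binds adiponectin, rose from 1.18 to 2.17 FPKM (q = 0.0378 in the authors' deposited table). The adiponectin receptor gene Adipor2 had 10.1 against 9.24 FPKM (q = 0.629), the insulin receptor gene Insr 4.46 against 5.35 FPKM (q = 0.0850) and the leptin receptor gene Lepr 1.45 against 2.70 FPKM (q = 0.280), and none of these was called in that table.

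Of 4 tested genes of the alternative complement pathway, in which adipsin acts, Cuffdiff called 0 in the authors' deposited table (0 at an unadjusted p under 0.05), and the median log2 fold change was 0.35. The substrate of adipsin, encoded by Cfb, had 6.29 against 4.72 FPKM (q = 0.374 in that table, in a shared interval). C3 had 60.6 against 39.7 FPKM (q = 0.381), the properdin gene Cfp 3.93 against 3.21 FPKM (q = 0.713) and Cd55, an inhibitor of the pathway, 2.06 against 1.87 FPKM (q = 0.826) in that table.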
